A study of Mus musculus with 12 samples.

Results

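AP-1 is a family of transcription factors that bind DNA as dimers, and 10 genes of the wider family were followed here in cultured dendritic cells: Fos, Fosb, Fosl1, Fosl2, Jun, Junb, Jund, Atf3, Batf and Maff. They were picked by name, as the rows with these gene symbols, and make up 10 of the 53465 genes in the tables. All 10 passed the filter on low values that left 14324 genes for testing. As background, JUN proteins pair with each other or with FOS proteins, whereas FOS proteins need a JUN partner to bind DNA. FOS-JUN dimers recognise the motif TGANTCA, and dimers with ATF proteins favour the longer TGACNTCA. In myeloid cells, MAP kinases downstream of Toll-like receptors and of cell stress switch on several of these genes within minutes to hours, and FOS and JUN mRNA then usually decays quickly. ATF3 is a stress-induced family member that often acts as a repressor, BATF works with JUN proteins and with IRF4 or IRF8 in dendritic cells and lymphocytes, and MAFF is a small MAF protein that lacks an activation domain and joins CNC and BACH factors.

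RNA came from 12 libraries of bone marrow-derived dendritic cells (BM-DCs) of wild type C57BL/6 mice at an age of 12 weeks, with n = 3 libraries in each of 4 groups. Progenitors were grown for 9 days with GM-CSF, and all groups share this culture. The Aβ+LPS group received oligomers of human Aβ1-42 (0.5 µM, 4 days in all, starting a day ahead of LPS) and LPS (100 ng/ml for 18 h), the Aβ group received the oligomers alone, the LPS group received LPS alone, and the Ctrl group stayed untreated and immature. LPS is the bacterial cell wall component used to mature dendritic cells, and Aβ1-42 oligomers are the soluble aggregates of the Alzheimer's disease peptide. No library with a control peptide was analysed here, so each comparison with Aβ sets oligomers against no peptide. Every group was sampled at 1 time, which cannot show when a transcript rose or decayed, and exposure to LPS and to oligomers differed in length. The stated times do not add up to a full schedule, since a day ahead of LPS plus 18 h is shorter than 4 days, and the time between LPS and harvest is not given in the sources used here. The sources used here do not say whether the cultures came from separate mice, so the p-values describe the scatter of these libraries, which may be technical.

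Levels are normalized counts, reads per gene divided by 1 size factor per library, and each library held 23415609 to 29690965 reads assigned to genes. Fold changes, written log2(fc), are on the scale of log2(normalized count + 1), with a standard error (SE) and a p-value from limma adjusted over all tested genes. A gene was said to have risen or fallen at an adjusted p under 0.05. Dendritic cell markers were abundant throughout, with a summed level over 7 markers of 91276 to 99511 in Aβ+LPS, 91291 to 95236 in Aβ, 81493 to 92124 in LPS and 91624 to 93749 in Ctrl, although Cd209a had no read in any Aβ+LPS or Aβ library. The sum hides opposite courses: Itgax, the gene of CD11c, was lower with oligomers (24114 to 25370 in Aβ+LPS, 23788 to 24767 in Aβ, 32935 to 34099 in LPS, 30973 to 31468 in Ctrl). Flt3, Zbtb46, H2-Ab1 and Ccr7 were higher in every library with oligomers than in any without. H2-Ab1 had 22766 to 25662 in Aβ+LPS, 23578 to 24404 in Aβ, 16494 to 18364 in LPS and 17518 to 18017 in Ctrl. Zbtb46 had 370.4 to 418.8 in Aβ+LPS, 316.9 to 359.6 in Aβ, 148.6 to 173.8 in LPS and 100.3 to 110.5 in Ctrl. The Cd74 libraries of both oligomer groups overlapped those of LPS. The sum of 6 macrophage markers was lower with oligomers, at 56111 to 58560 in Aβ+LPS and 57086 to 58118 in Aβ, against 62156 to 63382 in LPS and 72640 to 73996 in Ctrl, and none of these 6 was at 0 in every library of a group. The sum was carried by Mrc1 (557.5 to 563.2 in Aβ+LPS, 672.9 to 851.3 in Aβ, 6677 to 7256 in LPS, 18280 to 20238 in Ctrl), whereas Adgre1, the gene of F4/80, went the other way (33264 to 35572 in Aβ+LPS, 34759 to 35658 in Aβ, 28739 to 29559 in LPS, 21540 to 21928 in Ctrl). These levels moved along with most of the AP-1 changes below, and their part in them was not tested. Of the other cell types, the defining markers Ly6g (neutrophils), Cd3g (T cells), Ncr1 (NK cells), Fcer1a (basophils) and Col1a1 (fibroblasts) stayed between 0 and 5.54 in all libraries. The summed levels of these lists still differed between groups. The sum of 6 neutrophil markers, mostly S100a8, was 1058 to 1194 in Aβ+LPS, 1107 to 1303 in Aβ, 651.5 to 695 in LPS and 648.6 to 765.9 in Ctrl, and that of 4 fibroblast markers, mostly Dcn in the oligomer groups, was 1119 to 1319 in Aβ+LPS, 953.4 to 1143 in Aβ, 97.3 to 101.3 in LPS and 21.47 to 33.16 in Ctrl. The remaining lists were lower, at most 377.5 in any library for 6 mast cell and basophil markers (mostly Kit), 255.8 for 6 T and NK cell markers (mostly Lck) and 90.8 for 4 B cell markers, and each was lowest in Ctrl. In bulk RNA, fewer cells of a type and less RNA per cell cannot be told apart.

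The start regions of 5 genes are shown because they carry the DNA motifs that AP-1 and ATF dimers are known to bind. RefSeq sequence (GRCm38.p6) from 250 bases before to 50 bases after each start was at hand for 9 of the 10 genes (not Fosl1), with 11 start regions in all. Both strands were searched, so that TGACGT can read ACGTCA here. Capitals mark TGACNTCA, its shorter relative TGACGT, which it can overlap, and the TATA box TATAAA. Each sequence runs 5′ to 3′ on the strand of the gene from base −150 up to the base before the start (for Batf up to the annotated 5′ end of the gene in GENCODE vM21, at −52).
Fos, chr12:85473740-85473889, plus strand: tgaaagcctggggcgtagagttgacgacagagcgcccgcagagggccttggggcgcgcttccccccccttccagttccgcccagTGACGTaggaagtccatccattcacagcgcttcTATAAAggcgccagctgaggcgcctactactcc
Jun, chr4:95052223-95052372, minus strand: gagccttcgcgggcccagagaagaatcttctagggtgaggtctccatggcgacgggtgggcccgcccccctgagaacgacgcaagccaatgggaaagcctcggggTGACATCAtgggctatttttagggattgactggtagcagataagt
Atf3, chr1:191183334-191183483, minus strand: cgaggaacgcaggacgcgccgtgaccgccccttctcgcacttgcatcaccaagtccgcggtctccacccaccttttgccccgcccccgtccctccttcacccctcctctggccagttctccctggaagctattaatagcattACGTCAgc
Batf, chr12:85686570-85686668, plus strand: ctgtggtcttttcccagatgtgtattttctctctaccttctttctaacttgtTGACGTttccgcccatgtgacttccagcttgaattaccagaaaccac
Maff, second of 3 listed starts, chr15:79347370-79347519, plus strand: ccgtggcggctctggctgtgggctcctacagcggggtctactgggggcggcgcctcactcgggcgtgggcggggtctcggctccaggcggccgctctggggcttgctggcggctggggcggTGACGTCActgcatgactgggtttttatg

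TGACNTCA stood in 2 of the 9 genes, Jun (first base at −45) and Maff (−29 at the second start and −45 at the third), and in 8.83% of all 32851 RefSeq start regions of this length. Members are counted once per gene over all its starts, whereas the shares count single regions, so the measures differ. The region searched for Jund ends at chr8:70697788, before the start of the gene in GENCODE (70698949). TGACGT stood in 4 genes, Fos (−66), Atf3 (−8), Batf (−98) and Maff (−29, within its TGACNTCA match), against 7.51% of all regions. TGANTCA was in no member and in 7.81% of all regions. TATAAA was found in Fos (−33) and Junb (on the first base) and in 13.6% of all regions. The kappa-B motif lay in Fos, Fosb, Fosl2 and the third start of Maff, against 4.51% of all regions, and the CArG box was in none, against 1.63%. Members with a match moved both ways in the comparisons that follow. A match is a string of letters, and binding was not measured.

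Among the FOS genes, Fos and Fosb, the classic immediate early members, were lowest in the groups with oligomers. Fosl1 and Fosl2 encode the shorter FRA proteins without the strong activation domain of FOS, and of these Fosl2 was highest with oligomers, while Fosl1 was higher in every treated group than in Ctrl. Fos (ENSMUSG00000021250, GRCm38 chr12:85473890-85477273) had 581, 561.8 and 562.2 normalized counts in Aβ+LPS, 593.2, 537.4 and 531.8 in Aβ, 929.5, 904.5 and 933 in LPS, and 772.3, 748 and 780.3 in Ctrl. All 6 libraries with oligomers lay below all 6 without, and the LPS libraries lay above those of Ctrl. Fos fell with oligomers on top of LPS, with a log2(fc) of −0.70 (SE 0.06, adjusted p = 2.1e-09, limma) in Aβ+LPS vs. LPS, and fell in Aβ vs. Ctrl (−0.47, adjusted p = 5.2e-07), but rose in LPS vs. Ctrl (0.27, adjusted p = 0.001). Oligomers and LPS thus moved this gene in opposite directions relative to Ctrl.

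Fosb (ENSMUSG00000003545, chr7:19302696-19310051) had 174.4, 192.2 and 121.4 normalized counts in Aβ+LPS, 144.6, 167.3 and 173.9 in Aβ, 534.7, 348.5 and 538.2 in LPS, and 399.3, 298.5 and 315 in Ctrl. The libraries with oligomers again lay below all others, and LPS replicate 2 lay within the range of Ctrl. Its log2(fc) was −1.54 (SE 0.17, adjusted p = 6.7e-08, limma) in Aβ+LPS vs. LPS, the lowest of the 10 genes in this comparison, and −1.05 in Aβ vs. Ctrl (adjusted p = 8.9e-06). In LPS vs. Ctrl it was 0.47 (SE 0.17, adjusted p = 0.024), a call that was not made by DESeq2 on recovered reads (adjusted p = 0.062), without an intensity trend (0.1) or with only these groups in the fit (0.054). It was also lost without LPS replicate 1 (0.37, adjusted p = 0.12), LPS replicate 3 (0.37, adjusted p = 0.11), Ctrl replicate 2 (0.39, adjusted p = 0.094) or Ctrl replicate 3 (0.43, adjusted p = 0.074).

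Fosl1 (ENSMUSG00000024912, chr19:5447547-5455946) had the lowest mean of the 10 genes in each group, with 111, 149.1 and 142.8 in Aβ+LPS, 142.7, 140.7 and 149.6 in Aβ, 136.1, 115.2 and 116 in LPS, and 69.93, 60.62 and 62.38 in Ctrl. Every treated library lay above every Ctrl library, and the 3 treated groups lay close to each other. Fosl1 rose in LPS vs. Ctrl (log2(fc) 0.92, SE 0.14, adjusted p = 1.5e-05, limma) and in Aβ vs. Ctrl (1.16, adjusted p = 2.5e-07). In Aβ+LPS vs. LPS its log2(fc) of 0.13 did not pass the test (adjusted p = 0.47). Its 3′ part overlaps Ccdc85b on the opposite strand (129.6 to 258.7 normalized counts), and since the strand setting of the counting is not given in the sources used here, reads of both genes may not have been fully separated.

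Fosl2 (ENSMUSG00000029135, chr5:32135801-32157842) had 3075, 3106 and 3276 normalized counts in Aβ+LPS, 2969, 3013 and 2766 in Aβ, 2407, 2232 and 2648 in LPS, and 2115, 2084 and 2008 in Ctrl. No library of a group overlapped another group, in the order Aβ+LPS, Aβ, LPS and Ctrl. It rose in Aβ+LPS vs. LPS (log2(fc) 0.38, SE 0.05, adjusted p = 4.6e-06, limma), in Aβ vs. Ctrl (0.49, adjusted p = 5.7e-08) and in LPS vs. Ctrl (0.23, adjusted p = 0.0017). The step between Aβ+LPS and Aβ was small and did not pass the test (0.11, SE 0.05, adjusted p = 0.79).

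The 3 JUN genes took 3 different courses: Jun was lower in every treated group than in Ctrl, Junb was higher, and Jund hardly moved. Jun (ENSMUSG00000052684, chr4:95049034-95052222), which encodes the strong activator of the family, had 1734, 1653 and 1706 normalized counts in Aβ+LPS, 1588, 1743 and 1638 in Aβ, 2737, 2709 and 2816 in LPS, and 3427, 3666 and 3263 in Ctrl. The groups with oligomers overlapped each other and lay below LPS, which lay below Ctrl. Jun fell in Aβ+LPS vs. LPS (log2(fc) −0.70, SE 0.05, adjusted p = 8.1e-11, limma), in Aβ vs. Ctrl (−1.06, adjusted p = 2.6e-14) and in LPS vs. Ctrl (−0.32, adjusted p = 1.4e-05). It was the 1 member that fell with LPS. Jun overlaps its antisense gene Junos, which had 72.61 to 195 normalized counts.

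Junb (ENSMUSG00000052837, chr8:84974484-84978718), whose product is a weaker activator that can counteract JUN, had 5188, 5083 and 4900 normalized counts in Aβ+LPS, 5553, 5126 and 5296 in Aβ, 4050, 4287 and 4507 in LPS, and 3001, 3188 and 3156 in Ctrl. The order was the reverse of that of Jun, with both oligomer groups on top and Ctrl at the bottom. Junb rose in Aβ+LPS vs. LPS (log2(fc) 0.24, SE 0.05, adjusted p = 1.5e-04, limma), in Aβ vs. Ctrl (0.77, adjusted p = 2.0e-12) and in LPS vs. Ctrl (0.46, adjusted p = 4.3e-08). The end of Junb overlaps Prdx2 on the other strand, a gene with 4814 to 6278 normalized counts, so a share of reads could be miscounted if strand was ignored.

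Jund (ENSMUSG00000071076, chr8:70698949-70700616), the member that most cells express steadily, had 2099 to 2450 normalized counts in Aβ+LPS (median 2192), 2278 to 2757 in Aβ (median 2438), 1802 to 2281 in LPS (median 2280) and 2053 to 2283 in Ctrl (median 2134). LPS replicate 1 was the low library, and every pair of groups overlapped. Its log2(fc) was 0.20 in Aβ vs. Ctrl (SE 0.08, adjusted p = 0.03, limma) and 0.24 in Aβ vs. LPS (adjusted p = 0.018), and neither call was kept without an intensity trend (adjusted p = 0.12 against Ctrl and 0.096 against LPS). The call against Ctrl was lost without Aβ replicate 1 (0.13), Ctrl replicate 1 (0.20) or Ctrl replicate 3 (0.17), and the call against LPS without Aβ replicate 1 (0.16) or LPS replicate 1 (0.12). In LPS vs. Ctrl the value was −0.03 (adjusted p = 0.78), which turned to 0.08 when libraries were scaled to their totals and to 0.01 under quantile normalization.

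Of the 3 members outside the FOS and JUN families, Batf and Maff rose more than any other of the 10 genes in the comparisons of oligomers with their absence, and Atf3 had the highest level. Batf (ENSMUSG00000034266, chr12:85686669-85709087) had 791.7, 773.8 and 804 normalized counts in Aβ+LPS, 717.4, 756.8 and 650.1 in Aβ, 349.4, 395.1 and 389 in LPS, and 244.2, 293.9 and 236.2 in Ctrl. The 4 groups did not overlap. Batf rose in Aβ+LPS vs. LPS (log2(fc) 1.06, SE 0.09, adjusted p = 5.7e-10, limma), 2.09-fold, in Aβ vs. Ctrl (1.46, adjusted p = 1.3e-12), 2.74-fold, and in LPS vs. Ctrl (0.55, adjusted p = 1.5e-05), 1.47-fold.

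Maff (ENSMUSG00000042622, chr15:79346621-79359076) had 1303, 1247 and 1338 normalized counts in Aβ+LPS, 1239, 1261 and 1148 in Aβ, 642.8, 637.4 and 644.4 in LPS, and 261.5, 319.1 and 298.6 in Ctrl. LPS libraries stood well above Ctrl, and the libraries with oligomers stood above both. Maff rose 4.15-fold in Aβ vs. Ctrl (log2(fc) 2.05, SE 0.07, adjusted p = 7.1e-17, limma), 2.19-fold in LPS vs. Ctrl (1.13, adjusted p = 1.2e-11) and 2.02-fold in Aβ+LPS vs. LPS (1.01, adjusted p = 3.8e-11). With both agents it was 4.42 times as high as in Ctrl (2.14, adjusted p = 3.0e-17).

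Atf3 (ENSMUSG00000026628, chr1:191170296-191218039) had 17853, 18461 and 18660 normalized counts in Aβ+LPS, 18051, 17635 and 17811 in Aβ, 15963, 16309 and 15586 in LPS, and 15429, 16077 and 15941 in Ctrl. The groups with and without oligomers did not overlap, but the step was small. Atf3 rose in Aβ+LPS vs. LPS (log2(fc) 0.20, SE 0.04, adjusted p = 1.3e-04, limma) and in Aβ vs. Ctrl (0.17, adjusted p = 4.0e-04). In LPS vs. Ctrl its value was 0.01 (adjusted p = 0.82), but it passed the test at 0.13 with libraries scaled to their totals (adjusted p = 0.0075) and at 0.18 under quantile normalization (adjusted p = 4.7e-04). Scaling to totals moved the median log2(fc) of all genes to 0.1188 in LPS vs. Ctrl, from which the 0.13 of Atf3 hardly differs. Under quantile normalization this median was −0.0302, well below the 0.18 of Atf3. Why the settings differ for this gene was not tested.

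**Figure D1:**
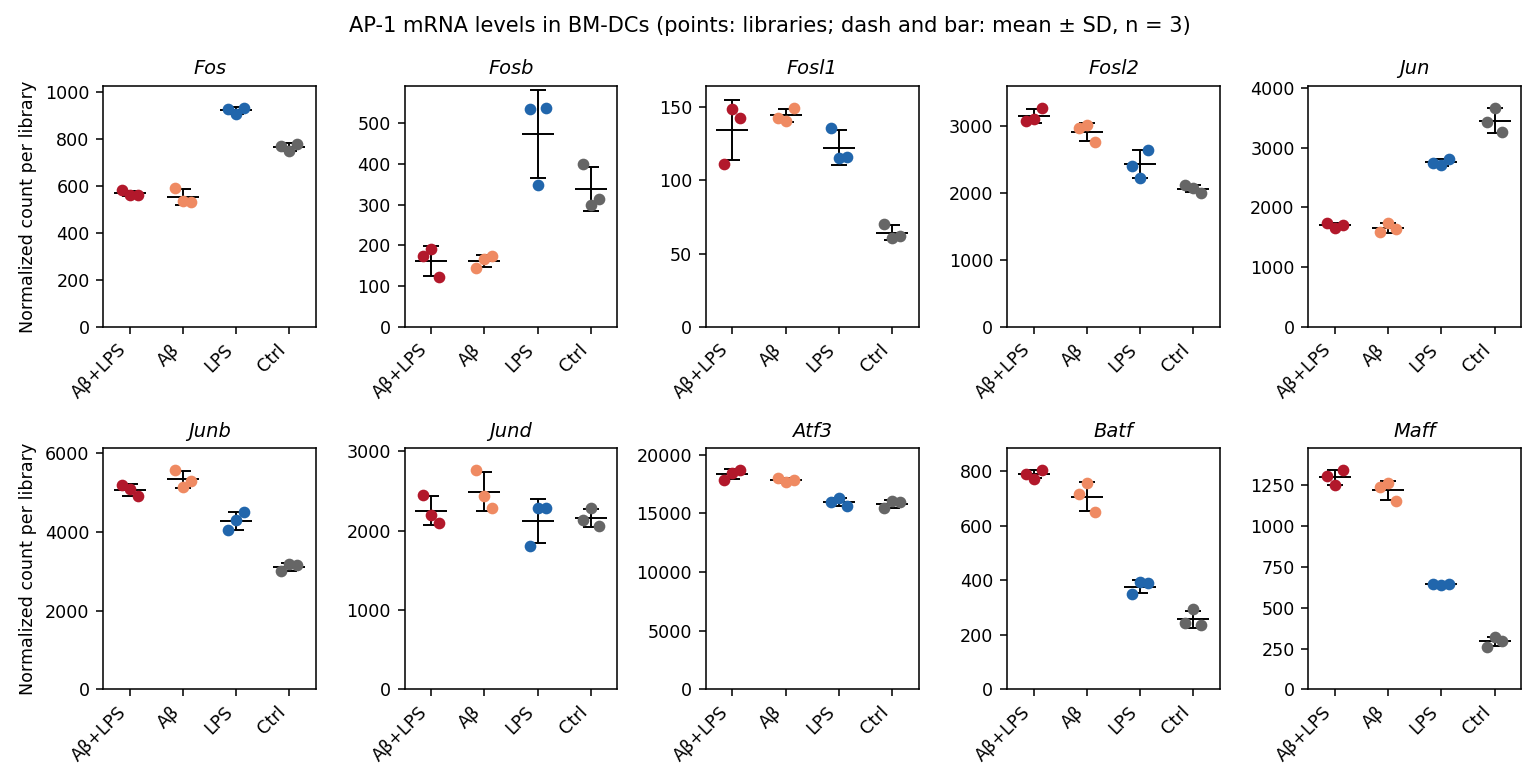
Normalized counts of the 10 AP-1 genes (vertical axes, each from 0) in Aβ+LPS, Aβ, LPS and Ctrl (horizontal axis). Points are libraries and the dash with its bar is the mean ± SD of n = 3; in the panels of Fos, Fosb and Jun both oligomer groups lie below LPS and Ctrl, and in those of Fosl2, Junb, Batf and Maff they lie above.

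Levels of different genes were compared per kb of exon, since longer genes collect more reads. The length covers all annotated exons of a gene, and which transcripts the cells made was not measured. The order of genes therefore depends on this length, whereas the change of a ratio between groups does not. Atf3 was far above the others in every group, with 8507 ± 195 normalized counts per kb in Aβ+LPS, 8279 ± 97.0 in Aβ, 7406 ± 168 in LPS and 7342 ± 159 in Ctrl (SD, n = 3 each). In Ctrl it was followed by Junb (1354 ± 43.4 per kb) and Jund (1293 ± 69.8), whose libraries overlapped, then Jun (1082 ± 63.5), Fos (326 ± 7.15), Fosl2 (214 ± 5.66), Batf (184 ± 22.2), Maff (113 ± 11.3), Fosb (54.1 ± 8.66) and Fosl1 (31.6 ± 2.43). Batf and Fosl2 overlapped there as well. In LPS the order after Atf3 was Junb (1861 ± 99.4 per kb), Jund (1272 ± 166), Jun (864 ± 17.3), Fos (392 ± 6.61), Batf (269 ± 17.7), Fosl2 (251 ± 21.6), Maff (247 ± 1.42), Fosb (75.9 ± 17.4) and Fosl1 (60.2 ± 5.82). Fosl2 overlapped both Batf (248.5 to 281) and Maff (245.7 to 248.4) there, which did not overlap each other, and Fosb overlapped Fosl1. In Aβ+LPS the order after Atf3 was Junb (2198 ± 63.5 per kb), Jund (1347 ± 109), Batf (562 ± 10.8), Jun (532 ± 13.0), Maff (499.5 ± 17.7), Fosl2 (326 ± 11.2), Fos (242 ± 4.65), Fosl1 (66.1 ± 10.1) and Fosb (26.1 ± 5.89), with no overlap between neighbours. In Aβ it was Junb (2314 ± 93.4 per kb), Jund (1493 ± 146), Jun (519 ± 24.9), Batf (504 ± 38.4), Maff (469 ± 23.0), Fosl2 (301 ± 13.6), Fos (236 ± 14.4), Fosl1 (71.0 ± 2.30) and Fosb (25.9 ± 2.46), where Batf overlapped both Jun and Maff. Batf thus stood above Jun per kb in Aβ+LPS (550.4 to 571.9 against 518.3 to 543.9), and below it in Ctrl (168 to 209.1 against 1023 to 1149). In counts not divided by length, Batf lay below Jun in Aβ+LPS as well (773.8 to 804 against 1653 to 1734).

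Aβ+LPS vs. LPS asks how oligomers, given from before maturation, change cells that also received LPS. In Aβ+LPS vs. LPS, 5 of the 10 members rose (Fosl2, Junb, Atf3, Batf and Maff) and 3 fell (Fos, Fosb and Jun), and Fosl1 and Jund did not pass the test. Over all tested genes, 27.8% rose and 28.3% fell in this comparison, so calls were common everywhere. The median log2(fc) of the members was 0.16, beside 0.01 over all genes, and the median size of the change without its sign was 0.54, beside 0.30. No library of the 8 called genes overlapped between these groups, but the share of all genes without overlap was not counted. Beside the AP-1 changes, macrophage markers were lower in sum. Among the dendritic cell markers Itgax was lower, at 24114 to 25370 normalized counts in Aβ+LPS against 32935 to 34099 in LPS, and Ccr7, the chemokine receptor of migrating dendritic cells, was higher, at 4293 to 4394 in Aβ+LPS against 680.5 to 861.8 in LPS, and their part in the AP-1 changes was not tested.

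Without LPS the same question is asked by Aβ vs. Ctrl. Here 7 members rose (Fosl1, Fosl2, Junb, Jund, Atf3, Batf and Maff) and 3 fell (Fos, Fosb and Jun), beside 35.1% of all genes that rose and 33.7% that fell. The median log2(fc) was 0.35 over the members and 0.02 over all genes, and the median unsigned change was 0.91 and 0.44. In Aβ+LPS vs. Ctrl, 6 rose (the same list without Jund) and the same 3 fell, beside 35.5% and 34.3% of all genes. All comparisons with Ctrl share its 3 libraries, so their values are given side by side and are not independent of each other. Read in this way, log2(fc) against Ctrl was −1.02 for Jun in Aβ+LPS and −1.06 in Aβ, −1.06 and −1.05 for Fosb, 0.70 and 0.77 for Junb, and 1.62 and 1.46 for Batf.

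In LPS vs. Ctrl, which asks what maturation does without oligomers, 7 members rose (Fos, Fosb, Fosl1, Fosl2, Junb, Batf and Maff), 1 fell (Jun) and Jund and Atf3 did not pass the test. Over all genes 23.8% rose and 22.5% fell, with a median log2(fc) of 0.36 over the members and 0.00 over all genes. With libraries scaled to their totals, 5026 genes were higher and 2020 lower, in place of 3404 and 3226, and the members' count became 8 and 1. Fos and Fosb were the members that rose with LPS and fell with oligomers. In Aβ vs. LPS, which sets the agents against each other, 6 members were higher in Aβ (Fosl2, Junb, Jund, Atf3, Batf and Maff) and 3 were lower (Fos, Fosb and Jun), beside 27.0% and 27.2% of all genes.

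**Figure D2:**
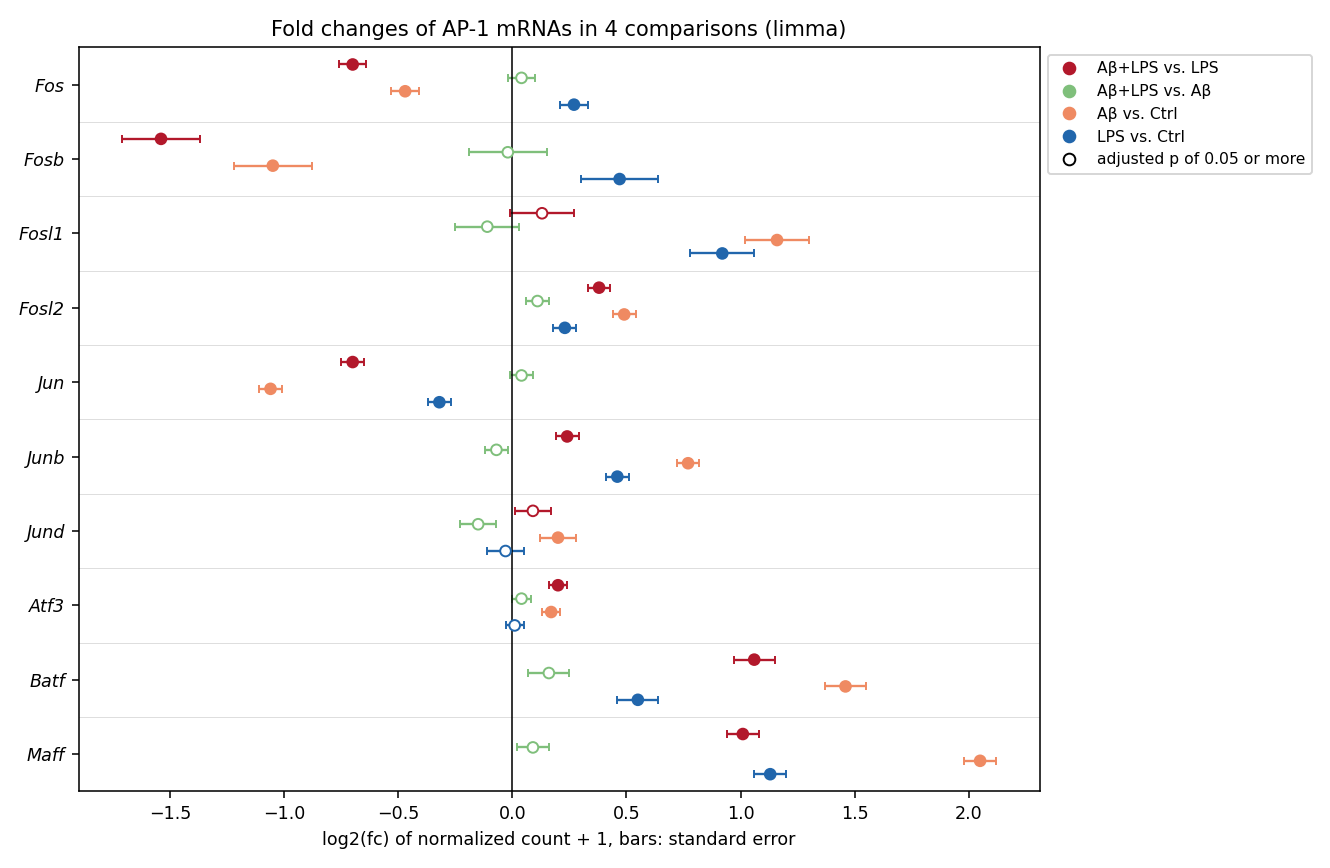
log2(fc) of each AP-1 gene (rows) with its SE (bars) in Aβ+LPS vs. LPS, Aβ+LPS vs. Aβ, Aβ vs. Ctrl and LPS vs. Ctrl, from limma; open circles have an adjusted p of 0.05 or more. The Aβ+LPS vs. Aβ circles are all open and lie between −0.15 and 0.16, whereas Maff reaches 2.05 in Aβ vs. Ctrl and Fosb −1.54 in Aβ+LPS vs. LPS.

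LPS made little difference once oligomers were present. In Aβ+LPS vs. Aβ, 0 members rose and 0 fell, beside 0.0279% and 0.112% of all genes (4 and 16 of 14324). No member had an unadjusted p under 0.05 in limma or DESeq2, and 2 had one in edgeR (Fosl2 and Batf), with no adjusted p under 0.70 there. The largest values were 0.16 for Batf (SE 0.09) and −0.15 for Jund (SE 0.08). Batf and Fosl2 had no overlap between the libraries of Aβ+LPS and Aβ, with Aβ+LPS on top in both.

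Whether the effect of LPS itself differed was tested by the interaction, the effect of LPS with oligomers minus its effect without them. It passed the test upward for 1 member (Jun) and downward for 5 (Fos, Fosl1, Junb, Batf and Maff), beside 15.2% and 16.6% of all genes. Maff had the lowest value, −1.04 (SE 0.10, adjusted p = 3.0e-08, limma): its log2(fc) was 0.09 in Aβ+LPS vs. Aβ, which did not pass the test, and 1.13 in LPS vs. Ctrl. The value was −1.03 for Fosl1 (adjusted p = 3.8e-04), −0.53 for Junb (1.6e-06), −0.39 for Batf (0.016), −0.23 for Fos (0.046) and 0.36 for Jun (3.9e-04), whose log2(fc) was 0.04 in Aβ+LPS vs. Aβ and −0.32 in LPS vs. Ctrl. The value of Fosb was −0.49 (SE 0.23) and did not pass (adjusted p = 0.12), though it did without LPS replicate 2 (−0.69, adjusted p = 0.013). Without Aβ+LPS replicate 3 it shrank to −0.29 (adjusted p = 0.35).

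Some of these interaction calls were narrow. That of Fos was lost without any 1 of 9 of the 12 libraries (all 3 of Aβ+LPS, Aβ replicate 1, LPS replicates 1 and 3 and all 3 of Ctrl, adjusted p = 0.055 to 0.14). It was also lost without a filter on low values (adjusted p = 0.065), under quantile normalization (0.054) and with DESeq2 (0.068). That of Batf was lost without Aβ replicate 2 (−0.34, adjusted p = 0.052). Scaling to totals moved the median interaction of all genes to −0.128 and the genes called to 1323 higher and 3663 lower, in place of 2175 and 2371. Fosl2 (−0.12, adjusted p = 0.28) was then called at −0.23, and Atf3 turned from 0.03 (adjusted p = 0.75) to −0.09, and to −0.17 under quantile normalization (adjusted p = 0.019).

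Since JUN and FOS proteins compete for partners, the mRNA makeup of each family was followed within each library, where library scaling has no influence. Proteins and dimers were not measured, so the shares and ratios describe mRNA only. Junb exceeded Jun per kb by a factor of 4.15, 4.26 and 3.98 in Aβ+LPS, 4.85, 4.08 and 4.48 in Aβ, 2.05, 2.19 and 2.22 in LPS, and 1.21, 1.21 and 1.34 in Ctrl. The groups with oligomers overlapped each other and lay above LPS, which lay above Ctrl. With 3 libraries a side an exact permutation test cannot go below p = 0.10 (two-sided), and it gave 0.10 for each of the 5 pairs of groups without overlap and 0.30 for Aβ+LPS against Aβ. Over the 18 such tests on 3 ratios the lowest adjusted p was 0.15. Jun made up 13.1 ± 0.494% of JUN mRNA per kb in Aβ+LPS, 12.0 ± 1.02% in Aβ, 21.7 ± 1.33% in LPS and 29.0 ± 0.687% in Ctrl (SD, n = 3 each). Jund held a similar share throughout, with means of 33.0% in Aβ+LPS, 34.5% in Aβ, 31.7% in LPS and 34.7% in Ctrl.

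**Figure D3:**
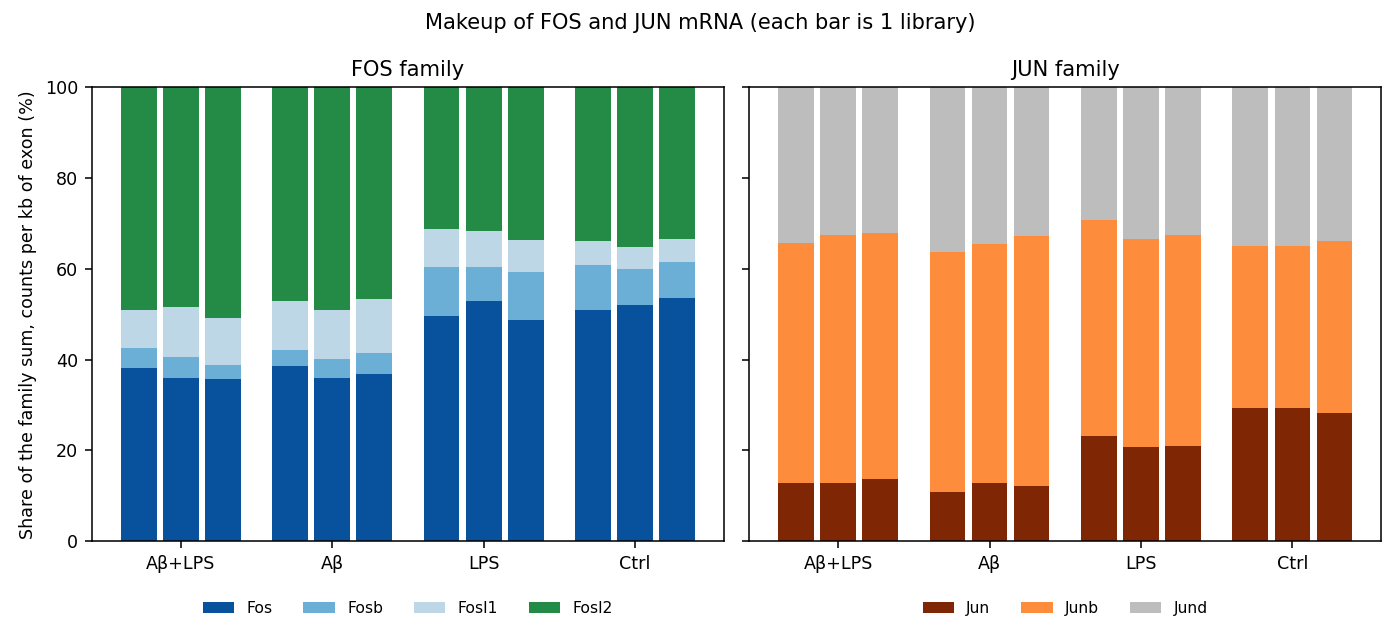
Share of each gene in the summed FOS (left) and JUN (right) mRNA of a library, in percent of normalized counts per kb of exon; each bar is 1 library, grouped as Aβ+LPS, Aβ, LPS and Ctrl. Fosl2 takes 46.6 to 50.7% of FOS mRNA with oligomers and 31.2 to 35.2% without, and Jun takes 10.9 to 13.6% of JUN mRNA with oligomers and 20.8 to 29.5% without.

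In the FOS family, Fosl2 exceeded Fos per kb with oligomers and stayed below it without. In counts not divided by length Fosl2 was above Fos in every group, with means of 2069 against 766.8 in Ctrl. The ratio of Fosl2 to Fos per kb was 1.29, 1.34 and 1.42 in Aβ+LPS, 1.22, 1.36 and 1.26 in Aβ, 0.629, 0.600 and 0.690 in LPS, and 0.666, 0.677 and 0.625 in Ctrl. LPS and Ctrl overlapped (exact permutation p = 0.70), and either lay below both oligomer groups (p = 0.10, the smallest possible). The ratio of Fos to Jun, in contrast, was 0.454 ± 0.00705 in Aβ+LPS, 0.455 ± 0.0461 in Aβ, 0.454 ± 0.00570 in LPS and 0.302 ± 0.0240 in Ctrl, so the treated groups overlapped (p = 1.00 for each pair, exact permutation test) and all lay above Ctrl (p = 0.10). Summed over the family, FOS mRNA came to 659 ± 10.7 normalized counts per kb in Aβ+LPS, 634 ± 19.6 in Aβ, 779 ± 45.5 in LPS and 626 ± 17.7 in Ctrl, and JUN mRNA to 4077 ± 175 in Aβ+LPS, 4327 ± 207 in Aβ, 3996 ± 265 in LPS and 3729 ± 152 in Ctrl.

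**Figure D4:**
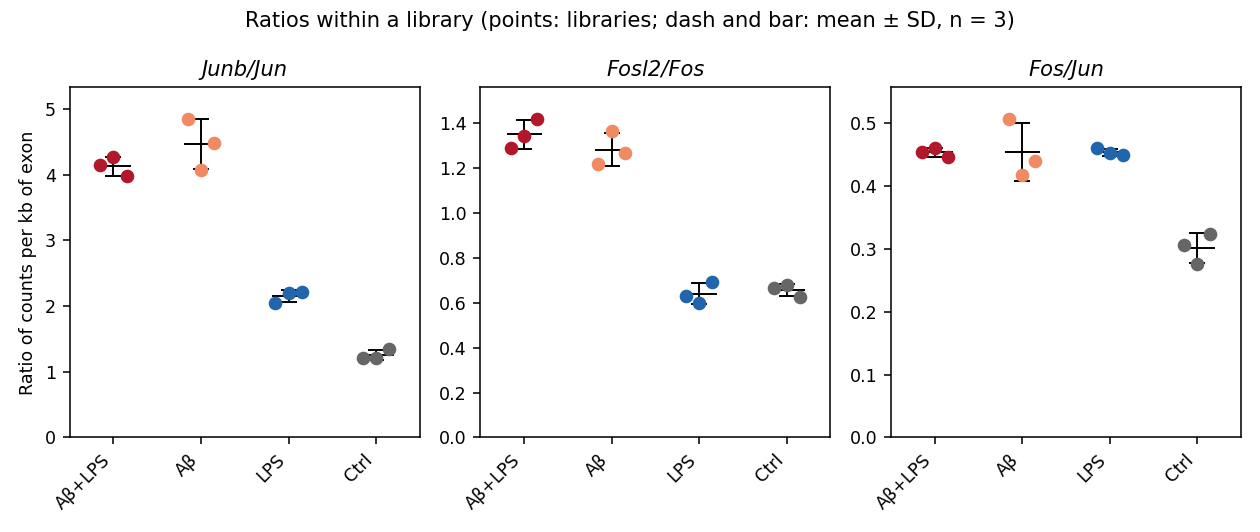
Ratios of normalized counts per kb of exon within a library (vertical axes, each from 0) for Junb to Jun, Fosl2 to Fos and Fos to Jun, in Aβ+LPS, Aβ, LPS and Ctrl; points are libraries, dash and bar the mean ± SD of n = 3. Junb to Jun is 3.98 to 4.85 with oligomers and 1.21 to 2.22 without, and Fos to Jun is near 0.45 in the 3 treated groups and 0.302 in Ctrl.

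Other genes of the pathway were read from lists, whose median log2(fc) in Aβ+LPS vs. LPS was 0.02 for dimer partners, −0.23 for CNC and BACH factors, 0.22 for other basic leucine zipper factors, 0.05 for partners and regulators outside them, 0.16 for MAP kinases, 0.27 for immediate early genes and 0.07 for heat shock genes, beside 0.01 over all genes. The counts that follow stand beside 27.8% of all genes that rose and 28.3% that fell in Aβ+LPS vs. LPS, 35.1% and 33.7% in Aβ vs. Ctrl, and 23.8% and 22.5% in LPS vs. Ctrl. Many are near these shares, and whether a list differs from the other genes was not tested. In Aβ+LPS vs. Aβ none of these 7 lists had a gene that passed the test in limma. Genes that pair with AP-1 proteins moved both ways. Of 10 tested dimer partners, 2 rose and 4 fell in Aβ+LPS vs. LPS, 4 rose and 5 fell in Aβ vs. Ctrl, and 1 rose and 3 fell in LPS vs. Ctrl. Jdp2, a repressor that binds JUN, had 681 ± 36.5 normalized counts in Aβ+LPS, 561 ± 22.2 in Aβ, 191 ± 6.08 in LPS and 143 ± 6.25 in Ctrl, and rose by 1.83 on the log2 scale in Aβ+LPS vs. LPS (adjusted p = 2.5e-14, limma). Batf3, which type 1 conventional dendritic cells need, fell by 0.46 in the same comparison (adjusted p = 3.8e-04, limma). Among 5 CNC and BACH factors, the partners of MAFF, 2 rose and 2 fell in Aβ+LPS vs. LPS, 3 rose and 1 fell in Aβ vs. Ctrl, and 3 rose and 1 fell in LPS vs. Ctrl. Nfe2l1 rose in Aβ+LPS vs. LPS (0.71), and Nfe2l2, the gene of NRF2, fell (−0.23). Of 20 other basic leucine zipper factors, 11 rose and 6 fell in Aβ+LPS vs. LPS, 10 rose and 5 fell in Aβ vs. Ctrl, and 7 rose and 5 fell in LPS vs. Ctrl; Atf4, of the amino acid and stress response, rose by 0.50 in Aβ+LPS vs. LPS, and Cebpa, of myeloid differentiation, fell by 0.91.

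Of the partners that do not share the leucine zipper, and of regulators, 12 were tested, and 3 rose and 3 fell in Aβ+LPS vs. LPS, 5 and 5 in Aβ vs. Ctrl, and 4 and 4 in LPS vs. Ctrl. Irf4 and Irf8, the factors BATF binds with on composite sites, parted in Aβ+LPS vs. LPS. Irf4 rose (log2(fc) 1.48, adjusted p = 7.8e-16, limma), with 2177 ± 66.1 normalized counts in Aβ+LPS, 1879 ± 72.8 in Aβ, 781 ± 31.2 in LPS and 577 ± 20.7 in Ctrl. Irf8 fell (−0.44, adjusted p = 4.4e-08, limma), with 2928 ± 52.8 in Aβ+LPS, 2926 ± 54.3 in Aβ, 3977 ± 174 in LPS and 2175 ± 112 in Ctrl. Against Ctrl both genes rose in LPS, Aβ and Aβ+LPS, Irf8 by 0.87, 0.43 and 0.43 and Irf4 by 0.44, 1.70 and 1.91. Of 20 MAP kinase genes upstream of AP-1, 11 rose and 3 fell in Aβ+LPS vs. LPS, 9 rose and 4 fell in Aβ vs. Ctrl, and 4 rose and 6 fell in LPS vs. Ctrl. Map2k1, the kinase MEK1, rose by 0.60 in Aβ+LPS vs. LPS (adjusted p = 1.1e-10), and Mapk14, the kinase p38 alpha, fell by 0.16 (adjusted p = 0.0053).

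Immediate early genes outside the AP-1 family were also split. Of 18 tested, 9 rose and 5 fell in Aβ+LPS vs. LPS, 11 rose and 6 fell in Aβ vs. Ctrl, and 8 rose and 2 fell in LPS vs. Ctrl. Ier3, an inhibitor of cell death, had 994 ± 17.2 normalized counts in Aβ+LPS, 930 ± 40.9 in Aβ, 343 ± 32.4 in LPS and 211 ± 8.83 in Ctrl, and Nr4a3, a nuclear receptor gene, rose by 0.82 in Aβ+LPS vs. LPS (adjusted p = 3.7e-07, limma). Klf4 and Klf2, Krüppel-like factors of myeloid cells, fell by 0.68 and by 0.97 in that comparison. Of 9 heat shock genes, read because cell handling can raise AP-1 mRNA, 4 rose and 3 fell in Aβ+LPS vs. LPS, 4 rose and 3 fell in Aβ vs. Ctrl, and 3 rose and 2 fell in LPS vs. Ctrl. Hspa1b had 144 ± 7.14 normalized counts in Aβ+LPS, 142 ± 19.0 in Aβ, 46.5 ± 7.66 in LPS and 21.5 ± 3.74 in Ctrl, so this gene was highest in both oligomer groups, where Fos and Jun were lowest. Its near-identical copy Hspa1a shares reads with it, which leaves the level of each uncertain. Its relation to the AP-1 changes was not tested.

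Genes that textbooks list as AP-1 targets mostly rose, except in Aβ+LPS vs. Aβ. Of 24 tested, 19 rose and 5 fell in Aβ+LPS vs. LPS, beside 27.8% and 28.3% of all genes. In Aβ vs. Ctrl 19 rose and 5 fell, beside 35.1% and 33.7%. In LPS vs. Ctrl 14 rose and 3 fell, beside 23.8% and 22.5%. In Aβ+LPS vs. Aβ 0 rose and 2 fell, beside 0.0279% and 0.112%. The median log2(fc) of these targets was 1.12 in Aβ+LPS vs. LPS, beside 0.01 over all genes. Many of them are also targets of NF-κB, so the list is not specific to AP-1. The list was also chosen with earlier results of these data known, so its counts and median are a description and not an independent test. Il1b, the gene of the cytokine IL-1β, had 38510 ± 2540 normalized counts in Aβ+LPS, 33329 ± 1158 in Aβ, 1478 ± 38.8 in LPS and 81.1 ± 10.1 in Ctrl. Ptgs2, which makes prostaglandins, rose by 4.31 on the log2 scale in Aβ+LPS vs. LPS (adjusted p = 1.3e-22, limma). Ccnd1, the cyclin D1 gene that JUN is known to activate, fell, with 826 ± 56.0 normalized counts in Aβ+LPS, 1068 ± 49.8 in Aβ, 5091 ± 154 in LPS and 10939 ± 866 in Ctrl. It was 1 of the 2 targets that fell in Aβ+LPS vs. Aβ (log2(fc) −0.37, adjusted p = 0.006), beside Spp1 (−0.30, adjusted p = 0.029), the gene of osteopontin.

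As a description of pattern, the gene most like each member over the 12 libraries was looked up among 10774 genes whose mean normalized count reached 100 in some group, by Pearson's r of log2(normalized count + 1). The points fall into 4 groups and share library and depth, so a high r mainly reflects a similar order of group levels. Maff was most like Smox, Traf1 and Tnfaip2 (r = 0.998 each), Batf most like Orai2 (0.997), Tnip1 (0.996) and Prdx5 (0.995), and Junb most like Nfil3 (0.997). Jun was most like Sema4d and Tubb2a (0.996 each), Fos most like Cd28 (0.989) and Atf3 most like Rnf31 (0.987). The highest r was lower for Fosl2 (Zfp106, 0.983), Fosl1 (Gm49249, 0.978), Fosb (2310001H17Rik, 0.967) and Jund (Iscu, 0.934), and that of Jund, whose groups overlapped, was the lowest of the 10.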

How the data were processed

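Poly(A) RNA was sequenced by the authors with a stranded kit in single reads. Per the labels, their processing used FastQC 0.11.5, HISAT2 2.1.0, featureCounts 1.6.0, DESeq2 and R 3.4.4 with the build GRCm38. The expression signal deposited by the authors is the count per gene divided by 1 DESeq2 size factor per library. The authors' own fold changes and p-values and their GO term lists were not used. Columns repeated between tables were identical (24 of 24). Multiplying by a single factor for each library gave back whole reads (within 0.05) for 100% of values.

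A gene was tested if its mean reached 10 in any group (14324 genes), with limma 3.58.1, with an intensity trend, on log2(normalized count + 1) of all 12 libraries and the group as only term (8 residual degrees of freedom). Benjamini-Hochberg adjustment ran over all tested genes, and calls needed an adjusted p under 0.05. edgeR 4.0.16 (quasi-likelihood, TMM) and DESeq2 1.42.0 on the recovered reads were alternatives chosen after seeing the data. Further alternatives were other pseudocounts (0.5 and 5), filters, scalings and fits, and leaving out each library. Software was R 4.3.3 and Python 3.11.15 with Matplotlib 3.10.9, NumPy 2.4.6 and pandas 2.3.3.

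Coordinates and exon lengths came from GENCODE vM21, which held 99.6% of the gene IDs, and promoters from RefSeq. The members and the gene lists were chosen with earlier results of these data known. All members are named, and of each list up to 3 genes per direction and comparison with the lowest adjusted p. Cell type markers were named as needed.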

Additional observations from a re-analysis of the deposited data

Results flagged for a closer look

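In 6 members the effect of LPS differed with and without oligomers by the test of the difference itself (limma, Benjamini-Hochberg adjusted p under 0.05). The effect of LPS with oligomers minus its effect without them was −1.04 on the log2 scale for Maff, −1.03 for Fosl1, −0.53 for Junb, −0.39 for Batf, −0.23 for Fos and 0.36 for Jun. For Maff the effect of LPS was 0.09 over Aβ and 1.13 over Ctrl, for Fosl1 −0.11 and 0.92, for Junb −0.07 and 0.46, for Batf 0.16 and 0.55, for Fos 0.04 and 0.27, and for Jun 0.04 and −0.32. The calls of Fos and Batf were not firm. That of Fos was lost in 9 of 12 fits with a library left out, without a filter on low values, under quantile normalization and with DESeq2, which called 5 members in all, and that of Batf was lost without Aβ replicate 2. Groups of 3 libraries were not searched for outlying samples.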

How the results depend on the processing

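The counts of members that rose and fell stayed within 1.5 times of the reported ones in all 152 recomputed counts under other settings and in all 168 with a library left out. Without a library, members that rose numbered 6 to 7 in Aβ vs. Ctrl, 6 to 7 in LPS vs. Ctrl and 5 to 6 in Aβ vs. LPS, and members with a lower interaction 4 to 6. Of 760 single values under other settings, 742 kept direction and call, 9 lost and 3 gained the call, and 6 changed sign. The replicate numbers did not pair the libraries (correlation of deviations −0.086 to 0.037 over 18 pairs), and the replicate block changed no call, so that in Aβ+LPS vs. LPS it again gave 5 members up and 3 down. Sign changes touched values that had not passed the test: Jund in LPS vs. Ctrl (0.08 scaled to totals, 0.01 under quantile normalization), Fosb in Aβ+LPS vs. Aβ (0.02 with edgeR, 0.01 with DESeq2) and the interaction of Atf3 (−0.09 scaled to totals, −0.17 under quantile normalization). The cause was not tested. With a library left out, values of Jund ran from −0.02 to 0.15 in Aβ+LPS vs. LPS, from −0.01 to 0.10 in Aβ+LPS vs. Ctrl and from −0.09 to 0.08 in LPS vs. Ctrl. In LPS vs. Ctrl those of Atf3 ran from −0.01 to 0.03. Fosb ran from −0.15 to 0.18 in Aβ+LPS vs. Aβ, and Fosl1 from −0.20 to 0.02. None of these had passed the test. The members with the fewest reads had the widest errors, with an SE of 0.14 for Fosl1 and 0.17 for Fosb.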
